A study of Mus musculus with 12 samples.

Results

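The 8 genes described here encode components and regulators of complement: *C3*, *C4b*, *Cfb*, *C1s1*, *C1ra*, *Serping1*, *Cd55* and *Clu*. They were taken by gene symbol from a table of 46731 mouse genes, and were proposed with earlier results of these data known. RNA was sequenced from ATDC5, a mouse teratocarcinoma-derived line that is used as a chondrogenic cell model. The cells carried a stably integrated lentiviral cassette that expressed a short hairpin RNA, a negative control in shRNA-NC cells and *Ddx5*-directed in shRNA-*Ddx5* cells. *Ddx5* encodes a DEAD-box RNA helicase. Each line was compared in medium and after 6 h with IL-1β (5 ng/ml) plus TNF-α (25 ng/ml), with 3 libraries in each of the 4 groups. The knockdown is that of a single hairpin design in a puromycin-selected line, and the labels do not say how the 3 libraries of a group were obtained, while the study's legends call the replicates biologically independent.

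Complement is a cascade of plasma proteins that tags surfaces for clearance and recruits inflammatory cells. In the classical pathway C1q carries the proteases C1r and C1s, and C1s cleaves C4 and C2. In the alternative pathway factor B joins cleaved C3. Both routes form convertases that cleave C3, the protein on which the pathways meet. C1 inhibitor (*Serping1*) inactivates C1r and C1s, CD55 speeds the decay of convertases on the cell surface, and clusterin (*Clu*) is an extracellular chaperone that binds the terminal complex. The liver makes most of the circulating proteins, and connective tissue cells and chondrocytes also make several of them.

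*C3*, *C1s1* and *C1ra* had their highest levels when knockdown and cytokines were combined, and for each of these genes the 3 libraries of that group lay above all 9 others. *Clu* was higher in knockdown cells with or without cytokines. *Cfb* rose with cytokines in knockdown cells. *Serping1* was found mostly in knockdown cells with cytokines, at a level too low for the main test, while *C4b* and *Cd55* were at or near 0 in every library. The upstream sequences of the first 3 genes are shown because these genes shared that highest group. They are the RefSeq windows of the GRCm38.p6 build, 250 bases ending just before the annotated start, and 4 of the 8 genes (*C3*, *C1s1*, *C1ra* and *Cd55*) had an entry. Capitals mark matches to TTGCNNAA, a C/EBP motif, on either strand.
*C3*, chr17:57228137-57228386, minus strand: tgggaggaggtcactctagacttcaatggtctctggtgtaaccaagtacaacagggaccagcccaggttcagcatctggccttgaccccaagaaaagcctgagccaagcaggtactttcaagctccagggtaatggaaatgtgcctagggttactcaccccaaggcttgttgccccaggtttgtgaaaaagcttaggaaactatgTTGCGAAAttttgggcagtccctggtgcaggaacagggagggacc
*C1s1*, chr6:124542360-124542609, minus strand: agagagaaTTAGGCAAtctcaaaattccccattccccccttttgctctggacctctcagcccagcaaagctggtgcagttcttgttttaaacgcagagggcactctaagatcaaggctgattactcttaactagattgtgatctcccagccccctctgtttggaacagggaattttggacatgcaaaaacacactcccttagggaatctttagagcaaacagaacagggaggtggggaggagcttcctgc
*C1ra*, chr6:124512371-124512620, plus strand: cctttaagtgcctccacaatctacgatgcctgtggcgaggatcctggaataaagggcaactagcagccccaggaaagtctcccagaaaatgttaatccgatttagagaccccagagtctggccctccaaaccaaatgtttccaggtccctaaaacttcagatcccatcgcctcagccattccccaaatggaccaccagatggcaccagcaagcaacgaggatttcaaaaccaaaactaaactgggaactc

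The *C3* window held 1 match, TTGCGAAA, from 45 to 38 bases before the start, on the strand of the gene. The *C1s1* window held 1 match on the opposite strand, from 242 to 235 bases before the start, and the overlapping window of another annotated *C1s1* start held 0. The *C1ra* and *Cd55* windows held 0 matches. Of 32851 windows of this length, 9.56% held the motif. An NF-κB motif (1.41% of windows), the STAT motif TTCNNNGAA (7.02%) and an interferon response element (2.98%) were searched on both strands and had 0 matches in the windows of these 4 genes. These matches describe letters in a sequence only. No binding was measured in these libraries.

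The libraries held 14119199 to 19276520 fragments assigned to genes. *Ddx5* was present at 325, 337 and 294 FPKM (fragments scaled to gene length and library size) in shRNA-NC cells and at 90.7, 118 and 99.9 FPKM in shRNA-*Ddx5* cells, that is, at 32.3% of the control mean. With cytokines the values were 327, 302 and 301 FPKM against 101, 93.6 and 104 FPKM, or 32.1%. The groups did not overlap, so every library matched its hairpin label. Of the chondrocyte markers, *Sox9* was present at 27.5 ± 0.327 FPKM (SD, n = 3) in shRNA-NC cells and *Col2a1* at 12.4 ± 3.05 FPKM, whereas *Acan*, the aggrecan gene of mature cartilage, did not exceed 0.0325 FPKM in any library. Replicate 2 of shRNA-NC with cytokines stood apart from its group in these genes. On a scale where 0 is the mean of the other 2 libraries of its group and 1 is the mean of shRNA-*Ddx5* with cytokines, it lay at 0.22 for *C3*, 0.23 for *C1s1*, 0.28 for *C1ra*, 0.38 for *Clu* and 0.90 for *Cfb*, but at 0.06 for *Ddx5* itself. Its median position was 0.14 over 541 genes that were higher after knockdown by at least 1 log2 unit in a fit without it, and 0.22 over 404 genes that were lower by as much. The cause was not tested. Values without this library are given below for the 5 tested genes and for each complement gene whose call changed without it.

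**Figure D1:**
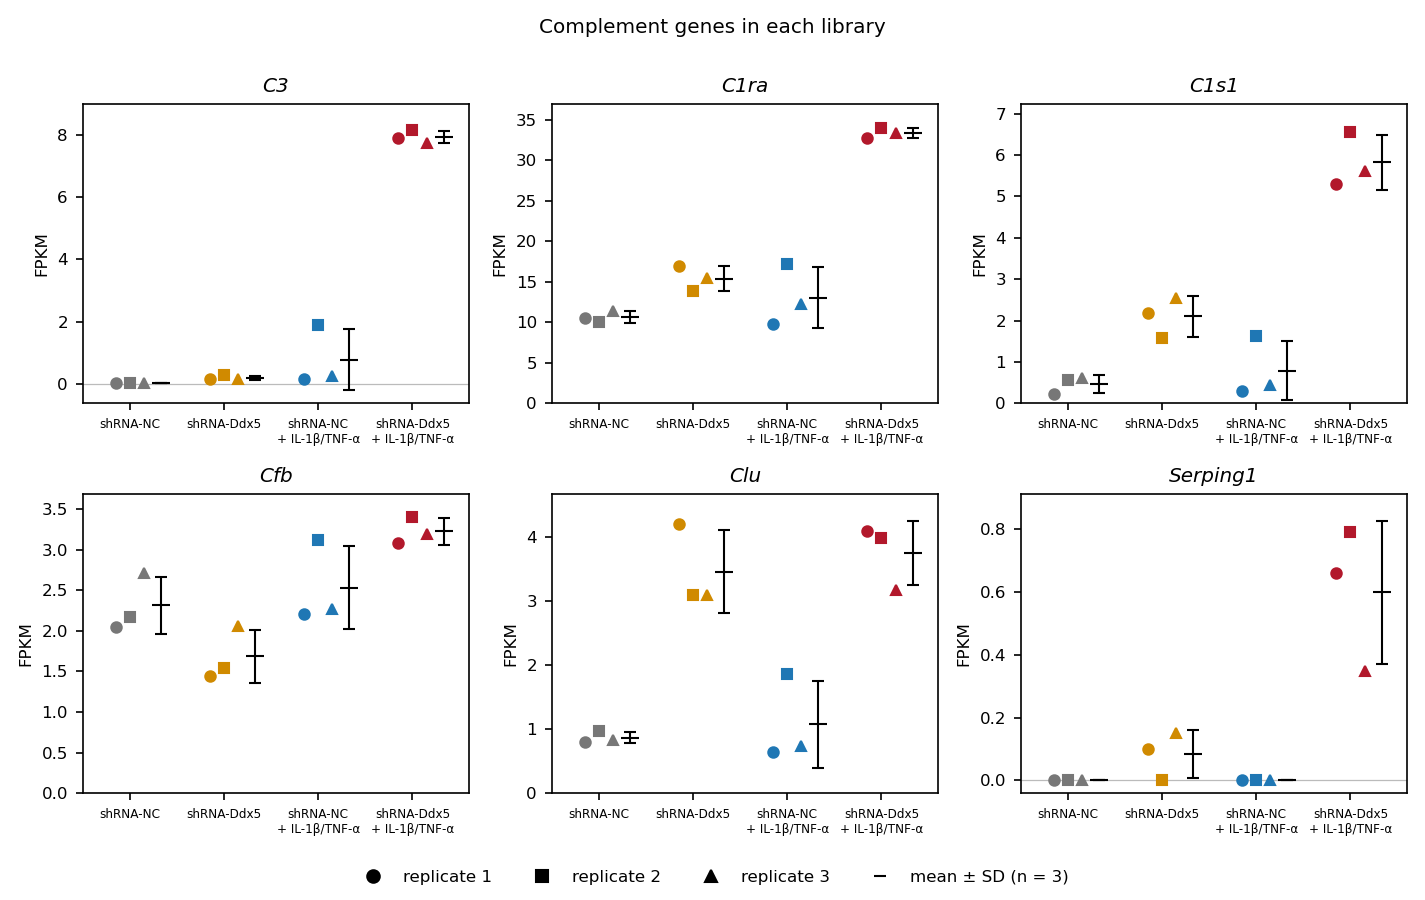
FPKM of 6 complement genes in each of the 12 libraries, by group on the horizontal axis. Each symbol is a library, the shape gives its replicate number, and the black bars are the mean and SD of 3 libraries. The *C3* libraries of shRNA-*Ddx5* with cytokines sit at 7.74 to 8.14 FPKM, and replicate 2 of shRNA-NC with cytokines sits at 1.92 FPKM, apart from 0.172 and 0.276 FPKM in the others of its group.

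Differences between groups were taken from a single limma fit of log2(FPKM + 1) over 12 libraries and 12368 genes, with p-values adjusted by the Benjamini-Hochberg method over all of them. A gene entered the fit with at least 1 FPKM in at least 3 libraries, which *C1ra*, *Cfb*, *C1s1*, *Clu* and *C3* met. *C3*, *C1s1* and *Clu* did so only through the groups in which they were high. A difference on this scale understates the fold change of a gene near or below 1 FPKM, so the fold of the group means is given beside it.

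*C3* (chromosome 17, 57510967 to 57535136, minus strand, GRCm39 as are all gene positions here) encodes the central component, whose cleavage product tags surfaces. It had 4, 5 and 4 fragments in the shRNA-NC libraries (0.0373, 0.0473 and 0.0511 FPKM) and 15, 27 and 15 in the shRNA-*Ddx5* libraries (0.175, 0.287 and 0.160 FPKM). With cytokines it had 15, 187 and 27 fragments in shRNA-NC (0.172, 1.92 and 0.276 FPKM) and 679, 674 and 635 in shRNA-*Ddx5* (7.88, 8.14 and 7.74 FPKM). Knockdown cells with cytokines were thus far above every other library, and the other 3 groups were ordered with shRNA-NC in medium lowest. With cytokines the mean was 10.05-fold higher after knockdown, a difference of 2.45 ± 0.263 (SE) on the log2(FPKM + 1) scale (adjusted p = 2.80e-05). Without replicate 2 of shRNA-NC with cytokines the fold was 35.3 and the difference 2.87 ± 0.0931 (adjusted p = 2.76e-08). Cytokines raised *C3* in knockdown cells by 2.89 ± 0.263, or 38.2-fold (adjusted p = 8.47e-06). In shRNA-NC cells the cytokine difference was 0.64 ± 0.263, which did not pass (adjusted p = 0.0794), although the groups did not overlap. The mean of that group was 17.4-fold above medium with replicate 2 and 4.96-fold without it, where the difference was 0.23 (adjusted p = 0.0926). It passed in a voom fit of the fragments, on a log2 scale with no pseudocount of 1 FPKM (3.25 ± 1.04, adjusted p = 0.0262), with a pseudocount of 0.1 FPKM (2.03, adjusted p = 0.0202) and without replicate 1 of the same group (0.88, adjusted p = 0.0275). In medium the means differed 4.59-fold and the groups did not overlap, with a difference of 0.21 ± 0.263 on the log2(FPKM + 1) scale (95% interval -0.37 to 0.78, adjusted p = 0.549). That SE is not the spread of the medium libraries alone. Without replicate 2 of shRNA-NC with cytokines, which is outside this comparison, the SE was 0.0833 (limma adjusted p = 0.0651).

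*C1ra* and *C1s1* encode the partner proteases of the C1 complex and lie tail to tail on chromosome 6, with 6903 bases between them. *C1ra* is at 124489580 to 124500399 on the plus strand and *C1s1* at 124507303 to 124519340 on the minus strand. *C1ra* had the highest level of the 8 genes, 10.5, 9.99 and 11.4 FPKM in shRNA-NC and 16.95, 13.8 and 15.5 FPKM in shRNA-*Ddx5*. With cytokines it was at 9.82, 17.2 and 12.2 FPKM in shRNA-NC and at 32.8, 34.0 and 33.3 FPKM in shRNA-*Ddx5*. The last group was tight and lay above all others, and the shRNA-NC group with cytokines was spread across the range of both groups in medium. Knockdown raised *C1ra* by 0.49 ± 0.153 in medium, or 1.45-fold (adjusted p = 0.0204), and by 1.32 ± 0.153 with cytokines, or 2.55-fold (adjusted p = 4.72e-05), which became 1.52 and 3.03-fold without replicate 2 of shRNA-NC with cytokines. The first of these calls was lost without shRNA-*Ddx5* replicate 1 (0.43, adjusted p = 0.0695) or 3 (0.49, adjusted p = 0.0534), without shRNA-NC replicate 2 (0.45, adjusted p = 0.0659), and with FPKM rescaled to the sum of fragments (0.40, adjusted p = 0.0631). Cytokines raised *C1ra* in knockdown cells by 1.07 ± 0.153, or 2.16-fold (adjusted p = 3.08e-04). In shRNA-NC cells the difference was 0.24 ± 0.153 (adjusted p = 0.246). Of the fits without 1 library it passed only without replicate 1 of the treated group (0.41, adjusted p = 0.0354), and it was 0.040 without replicate 2.

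*C1s1* was at 0.219, 0.571 and 0.622 FPKM in shRNA-NC and at 2.19, 1.57 and 2.54 FPKM in shRNA-*Ddx5*. With cytokines it was at 0.309, 1.62 and 0.446 FPKM in shRNA-NC and at 5.30, 6.56 and 5.61 FPKM in shRNA-*Ddx5*. Knockdown cells were higher than controls in both media without overlap. The differences after knockdown were 1.08 ± 0.233 in medium, or 4.46-fold (adjusted p = 0.00305), and 2.00 ± 0.233 with cytokines, or 7.37-fold (adjusted p = 5.07e-05), and the latter became 2.31, or 15.4-fold, without replicate 2 of shRNA-NC with cytokines. Cytokines raised *C1s1* in knockdown cells by 1.15 ± 0.233, or 2.77-fold (adjusted p = 0.00369). In shRNA-NC cells the value was 0.22 ± 0.233, or 1.68-fold (adjusted p = 0.487), and -0.085, or 0.80-fold, without replicate 2. Across the 12 libraries log2(FPKM + 1) of *C1s1* and *C1ra* had a Pearson correlation of 0.967, given as a description, since the libraries share their groups. The substrates of these proteases were scarce: *C4b* (chromosome 17, 34947249 to 34962876) had 2 fragments in all, 1 in replicate 1 of each knockdown group, and *C2* had 51. A count of 3 fragments of *C4b* would have read as 0.0266 to 0.0364 FPKM in these libraries, counting error only.

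*Cfb* encodes factor B, the protease of the alternative convertase, at 35075350 to 35081492 on chromosome 17, where the 3′ end of *C2*, on the same strand, lies 85 bases away. It was at 2.05, 2.17 and 2.72 FPKM in shRNA-NC and at 1.45, 1.54 and 2.06 FPKM in shRNA-*Ddx5*. With cytokines it was at 2.21, 3.12 and 2.27 FPKM in shRNA-NC and at 3.08, 3.41 and 3.19 FPKM in shRNA-*Ddx5*. Unlike in the genes above, knockdown cells in medium had the lowest values, which overlapped with the control values in a narrow range. The increase with cytokines passed in knockdown cells, by 0.66 ± 0.126 or 1.91-fold (adjusted p = 0.00245), and the groups did not overlap. In shRNA-NC cells it was 0.09 ± 0.126 (adjusted p = 0.618), and -0.028 without replicate 2 of the treated group. The knockdown differences were -0.30 ± 0.126 in medium (adjusted p = 0.0677) and 0.27 ± 0.126 with cytokines (adjusted p = 0.106). Without replicate 2 of shRNA-NC with cytokines both passed, at -0.30 (adjusted p = 0.0425) and 0.38 (adjusted p = 0.0281), and the first also passed without shRNA-*Ddx5* replicate 3 (-0.40, adjusted p = 0.0340) and with FPKM rescaled to the sum of fragments (-0.37, adjusted p = 0.0349).

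*Clu* (chromosome 14, 66205932 to 66218997) differed by hairpin, and its cytokine differences did not pass. It was at 0.799, 0.965 and 0.830 FPKM in shRNA-NC and at 4.20, 3.08 and 3.09 FPKM in shRNA-*Ddx5*. With cytokines it was at 0.640, 1.85 and 0.734 FPKM in shRNA-NC and at 4.09, 3.97 and 3.17 FPKM in shRNA-*Ddx5*. Each knockdown library was above each control library. Knockdown raised *Clu* by 1.25 ± 0.190 in medium, or 3.997-fold (adjusted p = 3.17e-04), and by 1.23 ± 0.190 with cytokines, or 3.48-fold (adjusted p = 3.38e-04). Without replicate 2 of shRNA-NC with cytokines the latter was 1.49, or 5.45-fold. The cytokine differences were 0.11 ± 0.190 in shRNA-NC (95% interval -0.31 to 0.53, adjusted p = 0.685, and -0.14 without replicate 2 of the treated group) and 0.09 ± 0.190 in knockdown cells (95% interval -0.32 to 0.51, adjusted p = 0.752).

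The other regulators were at the edge of detection. *Serping1* (chromosome 2, 84595704 to 84605778) had 0 fragments in the 6 shRNA-NC libraries, with or without cytokines. It had 3, 0 and 5 fragments in shRNA-*Ddx5* in medium and 20, 23 and 10 in shRNA-*Ddx5* with cytokines (0.661, 0.790 and 0.347 FPKM). Against a floor of 3 fragments per library, its mean in knockdown cells with cytokines was at least 6.59-fold higher than in controls with cytokines. In a fit with no filter on low values the difference was 0.67 ± 0.0890 (adjusted p = 5.18e-04), and knockdown cells with and without cytokines differed by 0.55 (adjusted p = 0.00234). That fit shares 1 estimate of spread over the 4 groups, and the 6 shRNA-NC libraries at 0 lower it. The SE and p-values therefore do not measure the spread of the knockdown libraries alone. *Cd55* (chromosome 1, 130357526 to 130392746) was listed at 0 in all 12 libraries, as was its neighbouring copy *Cd55b*, where 3 fragments would have read as 0.0119 to 0.0164 FPKM. The table also holds an antisense gene, *Cd55os*, that shares 8126 bases with *Cd55* and was at 0.

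*C4b*, *C1ra*, *C1s1* and *Cd55* have near-identical copies nearby, and how fragments matching both copies were counted is not given in the sources used here. *C4a* had 14 to 36 fragments per library, more than *C4b* in each. *C1s2* had 0 to 14 fragments. *C1rb* was uneven within groups, at 39 fragments in shRNA-NC replicate 3 and 104 and 163 in replicates 1 and 3 of shRNA-*Ddx5* with cytokines, with 0 to 7 in the other 9 libraries. Values of *C1ra*, *C1s1* and *C4b* are uncertain to the extent that reads were split with these copies.

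**Figure D2:**
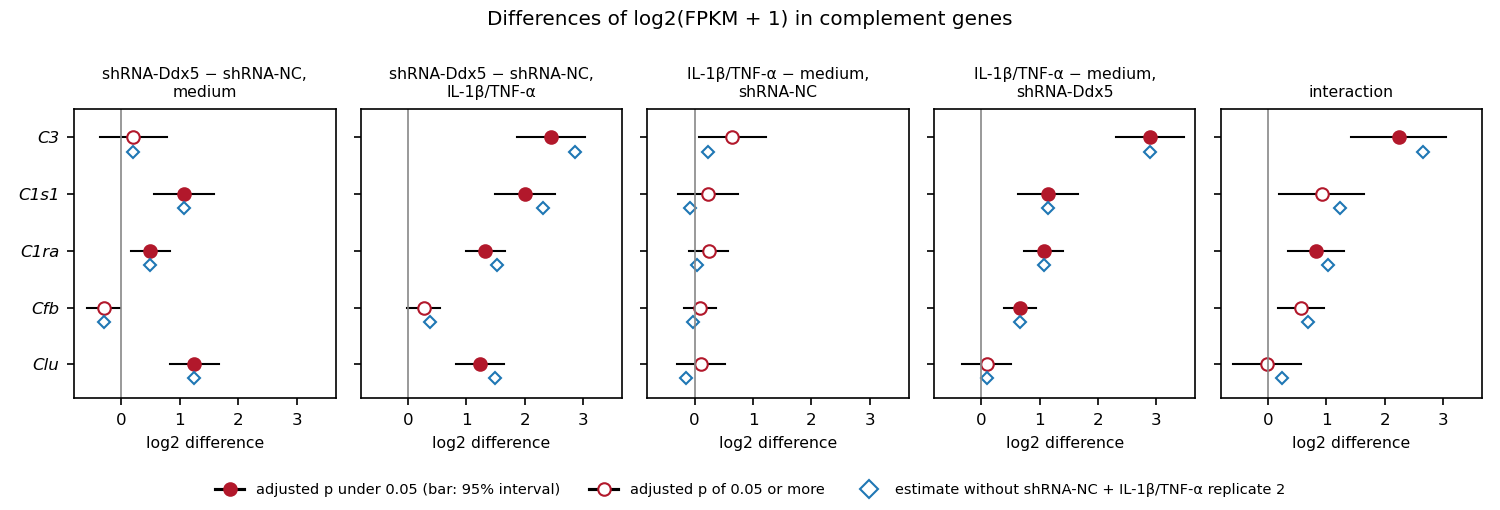
Differences of log2(FPKM + 1) for the 5 tested complement genes in 4 comparisons and their interaction, the knockdown effect with cytokines minus that in medium. Circles are estimates with 95% intervals, filled where the adjusted p is under 0.05, and diamonds are estimates without replicate 2 of shRNA-NC with cytokines. *C3* has the highest estimates in knockdown cells with cytokines, at 2.45 and 2.89, and *Clu* lies near 0 in both cytokine comparisons.

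By count, *C1ra*, *C1s1* and *Clu* rose after knockdown in medium, 3 of 8 genes, with *C3* and *Cfb* not passing and the other 3 not tested. Over all tested genes 25.3% rose in that comparison and 21.7% fell. The libraries did not overlap between the groups in 4 of the 8 genes (those 3 and *C3*), beside 53.5% of all tested genes. With cytokines, *C3* joined the genes that rose after knockdown, giving 4 of 8 beside 23.5% of all tested genes (22.1% fell). These 4 and *Serping1* did not overlap between groups, beside 61.6%. Cytokines raised *C3*, *C1s1*, *C1ra* and *Cfb* in knockdown cells, 4 of 8 genes beside 13.5% (13.5% fell), and these 4 and *Serping1* did not overlap, beside 47.3%. In shRNA-NC cells limma called 0 of the 8 genes higher, beside 18.6% of all tested genes (15.2% fell). There *C3*, the 1 gene whose groups did not overlap (45.7% of all tested genes), had an unadjusted p under 0.05 and was the 1 gene that voom called. The counts are out of all 8 genes, of which 3 were not tested, and include *Serping1*, while the shares are over tested genes only. The comparisons share groups, so these counts are not independent of each other. By limma 0 of the 8 genes were called lower in the 4 comparisons, where 1 gene, *Cfb* in medium, was lower at an unadjusted p under 0.05.

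The difference between the knockdown effects in the 2 media was tested as an interaction. It was 2.24 ± 0.371 for *C3* (adjusted p = 0.00417) and 0.83 ± 0.216 for *C1ra* (adjusted p = 0.0391). Of all tested genes, 3.46% (428 genes) were called with a higher effect with cytokines, and 588 genes with a lower one. It was 0.92 ± 0.330 for *C1s1* (adjusted p = 0.115), 0.57 ± 0.179 for *Cfb* (adjusted p = 0.0757) and -0.01 ± 0.268 for *Clu* (95% interval -0.60 to 0.57, adjusted p = 0.983). The *C3* call depended on the scale. As a ratio the knockdown effect was 4.59-fold in medium and 10.05-fold with cytokines, and in the voom fit, which compares ratios, the interaction was 2.01 ± 1.21 (adjusted p = 0.354). It was 2.70 with a pseudocount of 0.1 FPKM (adjusted p = 0.0784). The *C1ra* call was kept in 2 of 12 fits when single libraries were dropped, without replicate 2 of shRNA-NC with cytokines (1.03, adjusted p = 0.00230) and without shRNA-*Ddx5* replicate 1, and its estimate ranged from 0.66 to 1.03 over the 12. It was also lost with a pseudocount of 0.1 FPKM (adjusted p = 0.0525), quantile normalization (adjusted p = 0.0538), a replicate block (adjusted p = 0.0739) and no filter (adjusted p = 0.0798). Without that replicate 2 the *C3* interaction was 2.66 and that of *Clu* 0.24 (adjusted p = 0.443), and *C1s1* (1.23, adjusted p = 0.00819) and *Cfb* (0.69, adjusted p = 0.0289) passed as well.

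Among 52 other complement genes, 16 were at 0 in all libraries and 42 did not reach 1 FPKM in any. The 3 chains of C1q (*C1qa*, *C1qb* and *C1qc*) were at 0, and so were *C6*, *C8a* and *C8b* of the terminal complex and *Mbl1* of the lectin pathway. Of the lectin pathway genes, *Masp1*, which encodes a protease that starts it, fell with cytokines, from 6.58 ± 0.521 to 4.73 ± 0.221 FPKM in shRNA-NC (SD, n = 3, adjusted p = 0.0107) and from 8.39 ± 0.479 to 5.31 ± 0.877 FPKM in shRNA-*Ddx5* (adjusted p = 0.00134). In medium it was higher after knockdown by 0.31 ± 0.102 (adjusted p = 0.0261), a call that 3 of 12 fits without 1 library lost. *Colec12*, a scavenger receptor of the collectin family, was at 20.001 ± 1.06 FPKM in shRNA-NC and 23.0 ± 2.39 FPKM in shRNA-*Ddx5*, and with cytokines at 9.74 ± 1.41 and 18.1 ± 1.39 FPKM. It fell by 0.98 on the log2(FPKM + 1) scale with cytokines in shRNA-NC (adjusted p = 5.96e-05). In knockdown cells the value was -0.32 ± 0.110 (adjusted p = 0.0503, and 0.0433 without replicate 2 of shRNA-NC with cytokines), and the interaction was 0.65 ± 0.156 (adjusted p = 0.0268, called in 8 of 12 fits without 1 library).

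In medium, knockdown raised 3 of the 9 tested genes of this wider list, beside 25.3% of all tested genes: *Masp1*, *Cr1l*, a membrane regulator of convertases (0.55 ± 0.137, adjusted p = 0.00680), and *C1qbp*, a mainly mitochondrial protein that can bind C1q (0.59 ± 0.108, adjusted p = 0.00108). With cytokines 5 of 9 were higher after knockdown, beside 23.5%: *Colec12* (0.84 ± 0.110, adjusted p = 1.14e-04), *C1qbp* (0.46 ± 0.108, adjusted p = 0.00469), *Cfp*, *Masp2* and *C1rb*. *Cfp*, which encodes properdin, the stabilizer of the alternative convertase, was at 4.38 ± 0.480 FPKM in shRNA-NC and 8.03 ± 0.579 FPKM in shRNA-*Ddx5* with cytokines (adjusted p = 0.0188, called in 9 of 12 fits without 1 library). In medium *Cfp* was at 5.76 ± 2.46 FPKM in shRNA-NC, with replicate 3 at 2.97 FPKM, and 5.05 ± 0.495 FPKM in shRNA-*Ddx5* (adjusted p = 0.783). Without that replicate 3, *Cfp* was called lower after knockdown in medium (-0.43, adjusted p = 0.00814). The same fit called it lower with cytokines in shRNA-NC (-0.60, adjusted p = 0.00215) and called its interaction (1.18, adjusted p = 0.00132). *Masp2*, the lectin pathway protease that cleaves C4, was at 1.14 ± 0.441 and 1.81 ± 0.154 FPKM (adjusted p = 0.0455) and was called in 4 of 12 fits without 1 library, not in that without replicate 2 of shRNA-NC with cytokines (adjusted p = 0.0696). The *C1rb* difference (1.49 ± 0.496, adjusted p = 0.0290) rests on the uneven libraries described above and was called in 7 of 12 such fits, not in that without the same replicate 2 (adjusted p = 0.0636). Cytokines raised 1 of 9, *C1qbp*, in shRNA-NC, beside 18.6% (0.34 ± 0.108, adjusted p = 0.0327). That call was lost in 4 of 12 fits without 1 library, among them that without replicate 2 of the treated group (adjusted p = 0.0516), and with no filter (adjusted p = 0.0621), scaling to the sum of fragments (adjusted p = 0.0627), only the libraries compared (adjusted p = 0.0746) and quantile normalization, where the *C1qbp* value was 0.070 (adjusted p = 0.506). *C8g* passed in 0 of the 4 comparisons by limma, with 0 at an unadjusted p under 0.05 and 0 by voom. *Cd59a* was at -0.34 ± 0.118 for cytokines in knockdown cells (adjusted p = 0.0511) and passed there with quantile normalization, with scaling to the sum of fragments and by voom (adjusted p = 0.0432).

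**Figure D3:**
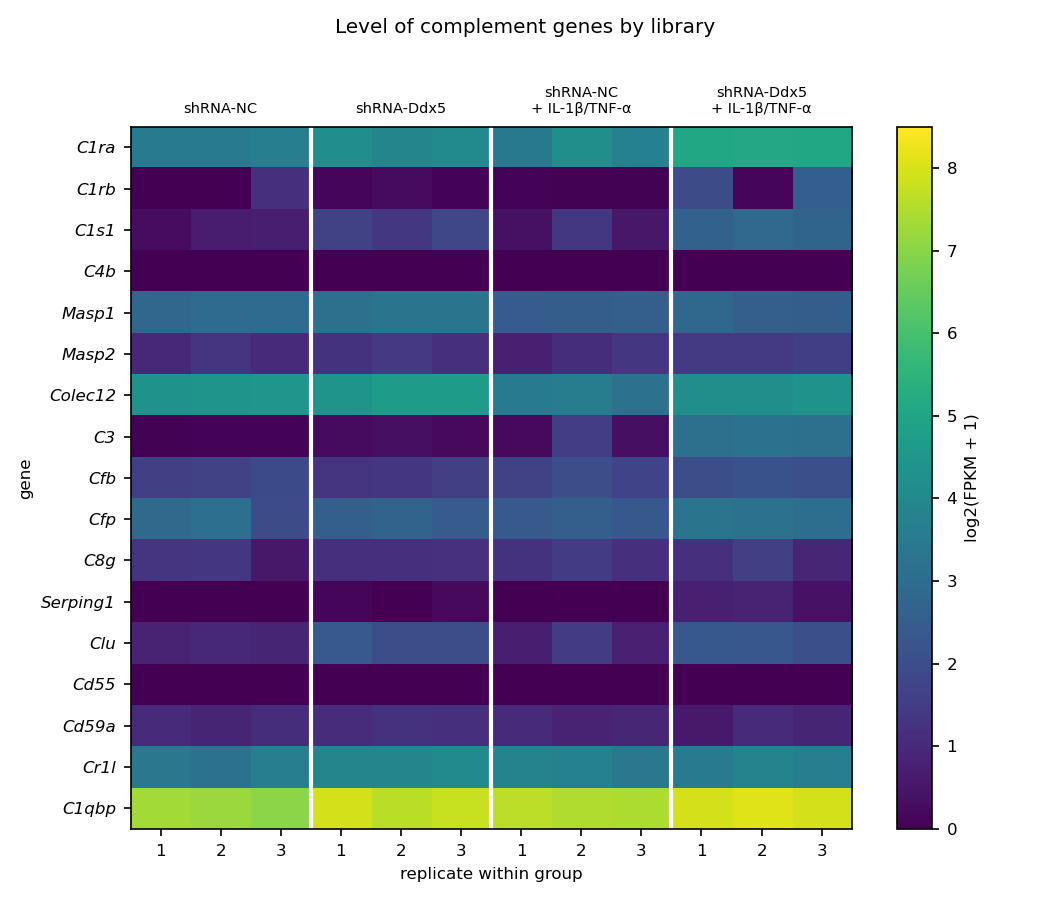
Level of 17 complement genes in the 12 libraries as log2(FPKM + 1), from dark (0) to light (highest), with genes ordered by role from the C1 proteases to regulators and receptors. *C4b* and *Cd55* stay at the dark end in every library, *C3*, *C1s1* and *C1ra* are lightest in shRNA-*Ddx5* with cytokines, and *C1qbp* is the lightest row at 130 to 268 FPKM.

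Markers of other cell types were read beside these levels. The 6 hepatocyte markers summed to at most 0.323 FPKM and the 6 endothelial markers to at most 0.186 FPKM in any library. Of the 8 macrophage markers, *Ptprc* was at 0 in all 12 libraries and *Adgre1* had 1 fragment in 1 library. The summed level of the macrophage list nevertheless moved with the groups, at 5.30 to 5.66 FPKM in shRNA-NC, 6.36 to 7.63 in shRNA-*Ddx5*, 8.19 to 10.7 in shRNA-NC with cytokines and 11.5 to 12.4 in shRNA-*Ddx5* with cytokines. *Cd14* alone was at 3.88 ± 0.249 FPKM in the first and 9.499 ± 0.356 FPKM in the last of these groups. In shRNA-*Ddx5* in medium *Cd14* was at 4.29 ± 0.820 FPKM, and its knockdown difference there did not pass (limma adjusted p = 0.488). With cytokines *Cd14* was higher after knockdown (0.37 ± 0.120, adjusted p = 0.0261, called in 7 of 12 fits without 1 library). Cytokines raised *Cd14* in shRNA-NC (0.74, adjusted p = 7.58e-04) and in knockdown cells (adjusted p = 7.81e-05). *Cd68* did not pass in these comparisons (adjusted p = 0.190, 0.238 and 0.249). *Cd68* went from 1.42 FPKM in shRNA-NC to 1.10 FPKM in shRNA-*Ddx5* in medium (adjusted p = 0.173). In the same comparison *Lyz2* went from 0.0518 to 0.934 FPKM and *Csf1r* from 0.0887 to 0.381 FPKM, neither of them tested. The 8 fibroblast markers summed to 527 to 540 FPKM in shRNA-NC and 2059 to 2164 FPKM in shRNA-*Ddx5*, and with cytokines to 245 to 405 and 1547 to 1792 FPKM. Most of that sum was *Col1a2*, at 499 ± 11.0 and 1738 ± 52.9 FPKM in medium. Of the 5 fibroblast markers tested, 4 rose after knockdown in medium and 5 with cytokines, beside 25.3% and 23.5% of all tested genes. In knockdown cells 2 rose with cytokines, *Dcn* (4.84-fold) and *Pdgfra* (4.33-fold), beside 13.5%, while 0 fell. *Dcn* passed the filter only through knockdown cells and *Pdgfra* only through cytokine-treated cells. The marker counts are therefore not independent of the filter. In shRNA-NC cells 1 rose with cytokines, *Pdgfra*, beside 18.6%, and 1 fell, *Col1a2*, beside 15.2%. The 8 chondrocyte markers summed to 38.6 to 45.3 and 24.7 to 29.0 FPKM in medium and to 13.8 to 20.2 and 7.36 to 8.25 FPKM with cytokines. Within that list *Col9a1* and *Hapln1* were at 0 in the 6 shRNA-NC libraries and at means of 0.207 and 0.110 FPKM in shRNA-*Ddx5* in medium. Of the 3 chondrocyte markers tested, 2 fell after knockdown in medium, beside 21.7% of all tested genes. *Col2a1* went from 12.4 to 0.899 FPKM and *Col11a2* from 2.53 to 1.02 FPKM (limma adjusted p = 5.92e-06 and 0.00412). With cytokines these 2 and *Sox9* were lower after knockdown, beside 22.1%, with *Col11a2* called in 3 of 12 fits without 1 library. *Col2a1* passed the filter only through shRNA-NC cells. The part of these marker shifts in the complement values was not tested, and in bulk libraries fewer cells of a type and less RNA per cell cannot be told apart.

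The genes whose log2(FPKM + 1) over the 12 libraries was most like that of each gene are given as a description. For *C3* these were *Adora2b* (Pearson r = 0.994), *Lilrb4a* (0.994) and *Gpr84* (0.993). For *C1s1* they were *Stat3* (0.988), *Tmem176b* (0.986) and *Gas7* (0.985), and for *C1ra* they were *Gstt3* (0.988), *Lamc1* (0.988) and *Ppm1h* (0.977). *Clu* was most like *Pomgnt1*, *P3h1* and *Ssr4* (each 0.979). *Cfb* had lower values, with *Heatr6* (0.921), *Rffl* (0.915) and *Ctrl* (0.907). The 12 libraries share 4 groups, so any pair of genes that differ between groups in the same order will correlate.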

How the data were processed

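RNA-seq libraries were made from 1 µg RNA per sample by poly(A) selection and sequenced as paired ends. The authors deposited 1 table with FPKM per gene (fragments scaled to gene length and library size) for 12 libraries. The submitters' processing notes name HISAT2 2.0.5, featureCounts 1.5.0-p3, DESeq2 1.20.0 and the mm10 build, while the study's methods name another featureCounts version. The coordinates in the table overlapped those of GRCm39 for 99.96% of 19829 protein-coding genes and those of GRCm38.p6 for 15.86% of 21992, so gene positions are given as GRCm39. Strand use and the treatment of multiply mapped reads are not given in the sources used here. FPKM multiplied by gene length gave whole multiples of 1 fragment (tolerance 0.01) for 100% of values in each library, from which fragments were recovered. The 400 unnamed loci stayed in the table. Libraries were grouped by their labels.

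Log2(FPKM + 1) was fitted with limma 3.58.1 (R 4.3.3, eBayes with trend) on 4 group means for genes with at least 1 FPKM in at least 3 libraries. Contrasts were two-sided, with Benjamini-Hochberg correction over all fitted genes, and calls were made at an adjusted p under 0.05. The deposited values are FPKM, so the main test was set on a log scale and the DESeq2 test of the study was not run, while the recovered fragments were fitted with voom as an alternative. The fit was tested on simulated data. Intervals of differences come from the limma fit and the spread between libraries, and floors of 3 fragments cover counting error only. Replicate numbers were checked for pairing, did not pair the libraries in the same way across comparisons, and were left out of the main fit. The genes, gene lists and motifs were chosen with earlier results of these data known. The text names the 8 genes, *Ddx5*, other complement genes that passed the filter, the copies of the 8 genes, and the 3 tested genes most correlated with each. Individual genes below the filter, group checks and marker genes were named after their values were seen. Alternatives were a pseudocount of 0.1, no filter, quantile normalization, scaling to the sum of fragments, voom on fragments, a replicate block, only the libraries compared, and leaving out each library. Tools were Python 3.11.15, numpy 2.4.6, pandas 2.3.3, scipy 1.17.1 and matplotlib 3.10.9.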

Additional observations from a re-analysis of the deposited data

Results flagged for a closer look

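The knockdown effect differed between media, by a test of the difference itself, in 3 of 14 tested complement genes. In all 3 it was higher with cytokines, as in 428 (3.46%) of the 12368 tested genes, while 588 had a lower one. For *C3* the effect with cytokines exceeded that in medium by 2.24 on the log2(FPKM + 1) scale (adjusted p = 0.00417), and voom on fragments gave 2.01 (adjusted p = 0.354). For *C1ra* it exceeded it by 0.83 (adjusted p = 0.0391), and the adjusted p ranged from 0.00230 to 0.0879 over the fits without 1 library. For *Colec12* it exceeded it by 0.65 (adjusted p = 0.0268), with 0.0173 to 0.0777 over the same fits. Groups of 3 libraries were not tested for outliers.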

How the results depend on the processing

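Same-numbered libraries deviated together with correlations of 0.448, 0.0425 and 0.313 for the knockdown in medium. Each was above the mean correlation with the other numbers (-0.285, -0.0491 and -0.0941). They were -0.0201, 0.121 and -0.0855 for the knockdown with cytokines and -0.368, 0.123 and -0.290 for cytokines in shRNA-NC. For cytokines in knockdown cells they were -0.0130, -0.292 and 0.0430. The numbers thus did not pair the libraries in the same way across comparisons, and pairing in medium stays possible. With a replicate block the *C1ra* and *Colec12* interactions (adjusted p = 0.0739 and 0.0518) and *Masp1* in medium (adjusted p = 0.0509) no longer passed, and 1 of the 8 genes and 0 of the wider list passed for the interaction (limma; 4 of the wider list had an unadjusted p under 0.05). It changed no other call of the 8 genes. The block gave 5452, 5232, 3769, 2902 and 687 genes in all against 5817, 5645, 4181, 3344 and 1016. Of the 8 genes, cytokines in shRNA-NC gave 1 call with a pseudocount of 0.1 and 1 with voom against 0. The interaction gave 0 with a pseudocount of 0.1 (3 at an unadjusted p under 0.05), 1 with quantile normalization and 1 with voom against 2, and with no filter also 2, *C3* and *Serping1* (adjusted p = 0.0433) in place of *C3* and *C1ra*. Of the wider list, no filter gave 7 calls against 3 for the knockdown in medium, 3 against 1 for cytokines in knockdown cells and 2 against 1 for the interaction. Cytokines in knockdown cells gave 3 with quantile normalization, scaling, voom or only the libraries compared and 2 with the block. The knockdown with cytokines gave 3 against 5 with only the libraries compared.

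Leaving out 1 library gave 559 to 1123 genes for the interaction, 1 to 4 of the 8 genes and 0 to 3 of the wider list. It gave 0 to 2 of the 8 genes for cytokines in shRNA-NC, and of the wider list 2 to 5 for the knockdown with cytokines and 1 to 5 for cytokines in knockdown cells. Without 1 library the sign turned for cytokines in shRNA-NC in *Cfb* (-0.028 to 0.17), *C1s1* (-0.085 to 0.41) and *Clu* (-0.14 to 0.26), in each without replicate 2 of the treated group, and for the *Clu* interaction (-0.16 to 0.24), none of which passed. The cause of these changes was not tested. With 4 or 5 fragments of *C3* per shRNA-NC library in medium, ratios against that group are imprecise. Of 274 gene results under the other alternatives, 245 kept their direction and side of the threshold, 22 lost the call and 7 gained it.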
